A study of Mus musculus with 288 samples.

Results

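Pzp-positive endocrine cells are cells of the mouse proximal small intestine that express Pzp, encoding pregnancy zone protein, a protease inhibitor of the alpha-2-macroglobulin family, with little of the hormone transcripts Gcg and Gip. A cell was a member when it held at least 100 CPM of Pzp (CPM, reads of a gene scaled to a fixed total of reads on mouse genes), under 10000 CPM of Gcg and under 10000 CPM of Gip, among cells with at least 20000 reads on mouse genes and at most 20% of them on mitochondrial genes. Of 288 deposited cells 250 were kept, and 64 of those (25.6%, exact 95% Clopper-Pearson interval 20.3% to 31.5%) were members. All cells came from GLU-Venus mice, male, 20 to 21 weeks old and on a C57BL6 background, which express the fluorescent protein Venus under the proglucagon promoter. After collagenase digestion, single fluorescent cells and non-fluorescent control cells were sorted into wells and read by Smart-seq2, which copies full-length mRNA without molecular identifiers. GEO's labels call every cell an L-cell and give its sequencing pool, but neither its mouse nor its fluorescence, so a pool was treated as 1 replicate. The p-values measure how far the difference between classes varied over the 3 pools. By the study's methods 3 mice were used, 2 at low depth and 1 at high depth, and the cells of the deep sort were fluorescent.

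Enteroendocrine cells are scattered through the gut epithelium and release peptide hormones or serotonin when nutrients, bile acids or microbial products reach them. They were long named by a single product, such as L-cells for proglucagon peptides, K-cells for Gip, I-cells for Cck, S-cells for secretin and enterochromaffin cells for serotonin, although single cells often hold several of these transcripts. Peptide hormones are cut from precursors, packed with granins into dense core granules and released under the control of receptors and ion channels.

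The members numbered 14 of 75 kept cells in pool SLX-11175 (18.7%, interval 10.6% to 29.3%), 22 of 87 in pool SLX-11179 (25.3%, 16.6% to 35.8%) and 28 of 88 in pool SLX-9703 (31.8%, 22.3% to 42.6%). The 3 intervals overlap, and they and the interval over all pools cover counting error only. By the paper the sort read at high depth held fluorescent cells only, while those at low depth also held non-fluorescent controls. The shares are therefore not of like sorts. Pool values below are given in this order. Members held a median of 56571, 67984 and 2147110 reads on genes per cell, so the pools SLX-11175 and SLX-11179 were shallow and pool SLX-9703 was deep. Counts of the members were summed per pool (850017, 1620606 and 58925336 reads) and set against sums of 3 comparison classes: all 186 other kept cells, 54 Gcg-high cells (at least 10000 CPM of Gcg, under 10000 CPM of Gip) and 37 Cck-high cells (at least 10000 CPM of Cck, under 10000 CPM of Gcg and Gip and under 100 CPM of Pzp). The 3 comparisons use the same member sums and are not independent of each other. Classes cut from a level are ranges of that level and not proven cell types. Of the other kept cells, 29 were Gip-high and 66 held under 10000 CPM of Gcg, Gip and Cck. Among these 66 cells the summed level of 14 immune genes reached 424855 CPM in pool SLX-11175, against at most 355 CPM in the member sums, so the class of all other kept cells includes cells rich in immune transcripts. It also includes cells that share genes with the members: 12 of the 66 held at least 10000 CPM of Nts, and of these 8 held at least 100 CPM of Tph1, 8 of Pgc, 12 of Gpx3 and 11 of Chga, counts taken after the values were seen.

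Pzp, Gcg and Gip are the values the members were chosen by and are described without a test. Pzp ran from 104 to 2538 CPM over the 64 members with a median of 841 CPM, and its pool medians were 595, 861 and 1092 CPM. In the pool sums Pzp stood at 548, 982 and 1096 CPM in members (875 ± 289, SD, n = 3 pools) and at 3.95, 1.32 and 1.44 CPM in all other kept cells. The threshold cut a thin part of the range. The 5 members nearest to it held 104, 115, 123, 123 and 166 CPM of Pzp, from 5 to 621 reads. Among cells under 10000 CPM of Gcg and of Gip, the 5 nearest outside it held 92.2, 43.6, 36.1, 34 and 27.2 CPM. Of the 186 other kept cells, 133 had no read of Pzp and 178 were under 20 CPM, and 1 cell with 291 CPM of Pzp was left out for its 32722 CPM of Gcg. At the minimum depth 1 read is 50 CPM, so the threshold is 2 reads there, and every member held at least 5 reads of Pzp.

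**Figure D1:**
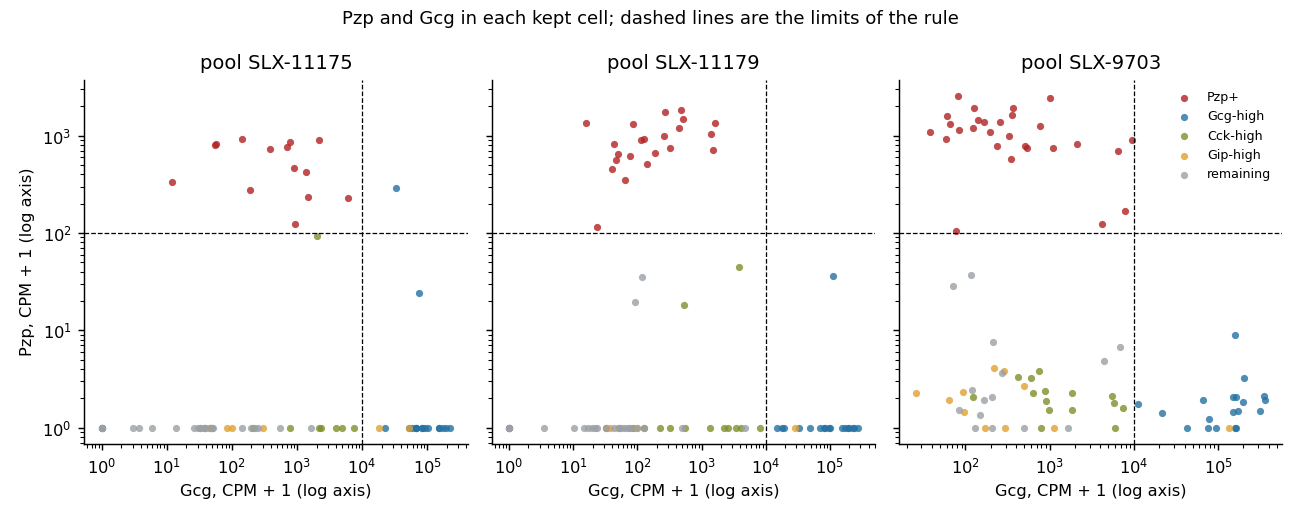
Level of Gcg (horizontal) and of Pzp (vertical) in each kept cell, both as CPM + 1 on log axes, in 1 panel per pool, with colours for the 5 classes and dashed lines at the limits of the rule. Members fill the upper left of every panel. Of the 186 other kept cells, 133 had no read of Pzp, 178 were under 20 CPM and 1 reached 100 CPM.

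All 64 members held reads of Gcg, the proglucagon gene, from 11 to 9545 CPM with a median of 259 CPM, and 45 of them reached 100 CPM and 14 reached 1000 CPM. In the sums Gcg stood at 865, 326 and 1730 CPM in members against 108634, 120791 and 149313 CPM in Gcg-high cells. Gip, the K-cell hormone gene, did not exceed 472 CPM in any member. Low Gcg was not particular to the members, since Cck-high cells stood at 2436, 2389 and 2343 CPM in the sums, above all member sums. Among the 66 cells low in Gcg, Gip and Cck, 54 had reads of Gcg too, with a median of 50.4 CPM. The limits of both classes keep their Gcg under 10000 CPM. Pyy, the other classical L-cell hormone gene, had reads in only 28 of the 64 members.

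Pzp lies on the minus strand at chr6:128483567-128526720 of build mm10 (GRCm38) and overlaps the gene model Gm10069, whose reads cannot be told apart without strand. The region around its start is shown because the members were chosen by this gene. RefSeq GRCm38.p6 gives the promoter as chr6:128526671-128526970 on the minus strand, 250 bases before the start to 50 after it. Capitals mark the letters ATCAAT or ATTGAT, found in sites of the Onecut factors, on either strand.
Pzp: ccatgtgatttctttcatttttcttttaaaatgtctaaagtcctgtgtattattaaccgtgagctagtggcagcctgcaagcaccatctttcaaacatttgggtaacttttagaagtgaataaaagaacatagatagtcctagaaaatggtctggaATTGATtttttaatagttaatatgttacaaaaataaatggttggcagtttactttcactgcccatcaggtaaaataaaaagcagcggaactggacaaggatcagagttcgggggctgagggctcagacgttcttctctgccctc
The Onecut letters begin here at -94 from the start. Over all 27025 RefSeq promoters of this length 7.74% hold them. A match of letters is a description and not a bound site.

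The other 5 genes proposed as markers were known from earlier results of these data and are given without a test. They encode Pgc, progastricsin, the precursor of a gastric protease; Gpx3, a secreted glutathione peroxidase; Tph1, the rate-limiting enzyme of serotonin synthesis outside the brain; Cyp2j5, a cytochrome P450 that oxidises fatty acids; and Onecut3, a cut-homeodomain transcription factor. To compare cells of unequal depth, each cell was thinned to 20000 reads. At that depth 32 of the 64 members had a read of all 5 genes, 45 had at least 4 and 59 had at least 3. No Gcg-high cell and no Cck-high cell had 4 or more. Among all 186 other kept cells 7 had at least 4 and 1 had all 5, and all 7 were among the 66 cells low in Gcg, Gip and Cck. Without thinning 45 members had a read of all 5, as did 16 of the 186 other kept cells (4 Gcg-high, 3 Cck-high and 2 Gip-high cells among them). At least 4 were then read in 55 members and in 36 other kept cells, 28 of them among the 60 of the deep pool. At equal depth the proposed markers were thus read together more often in members.

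Pgc had reads in 57 members and ran from 0 to 3800 CPM with a median of 301 CPM. Its sums stood at 506, 977 and 696 CPM in members and at 0, 18.1 and 4.66 CPM in Gcg-high cells. Gpx3 had reads in all 64 members, with a lowest level of 11.6, a median of 643 and a highest level of 3670 CPM. At 20000 reads it was read in 96.9% of members, 14.8% of Gcg-high, 24.3% of Cck-high and 51.7% of Gip-high cells. Cyp2j5 ran from 0 to 3317 CPM with a median of 326 CPM, and at 20000 reads it was read in 84.4% of members against 3.7% of Gcg-high and 5.41% of Cck-high cells. Onecut3 had member medians of 117, 288 and 281 CPM in the 3 pools and was read in 89.1% of members, 16.7% of Gcg-high and 10.8% of Cck-high cells. Pgc, Gpx3, Cyp2j5 and Onecut3 were thus common to most members in all 3 pools.

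Tph1 was the least even marker. It ran from 0 to 1304 CPM with a median of 222 CPM and had reads in 49 of the 64 members. Its pool medians of 115, 11.5 and 474 CPM differed far more than those of Pzp. In the sums Tph1 stood at 156, 210 and 597 CPM in members, 0, 0 and 0.464 CPM in Gcg-high cells. At 20000 reads it was read in 60.9% of members, in none of the 54 Gcg-high cells, in 2.70% of Cck-high cells and in 16.7% of the 66 cells low in Gcg, Gip and Cck, where it reached 546 CPM and 10 cells held at least 100 CPM. Members with and without Tph1 both occurred in each shallow pool. Across members Tph1 and Gpx3 had Spearman correlations of 0.73, 0.64 and 0.37 within the 3 pools (n = 14, 22 and 28 cells). This was 1 of 5 pairs, out of 231 pairs of 22 genes computed, that reached 0.3 in every pool, picked after all were seen, and the values of a cell share its depth.

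**Figure D2:**
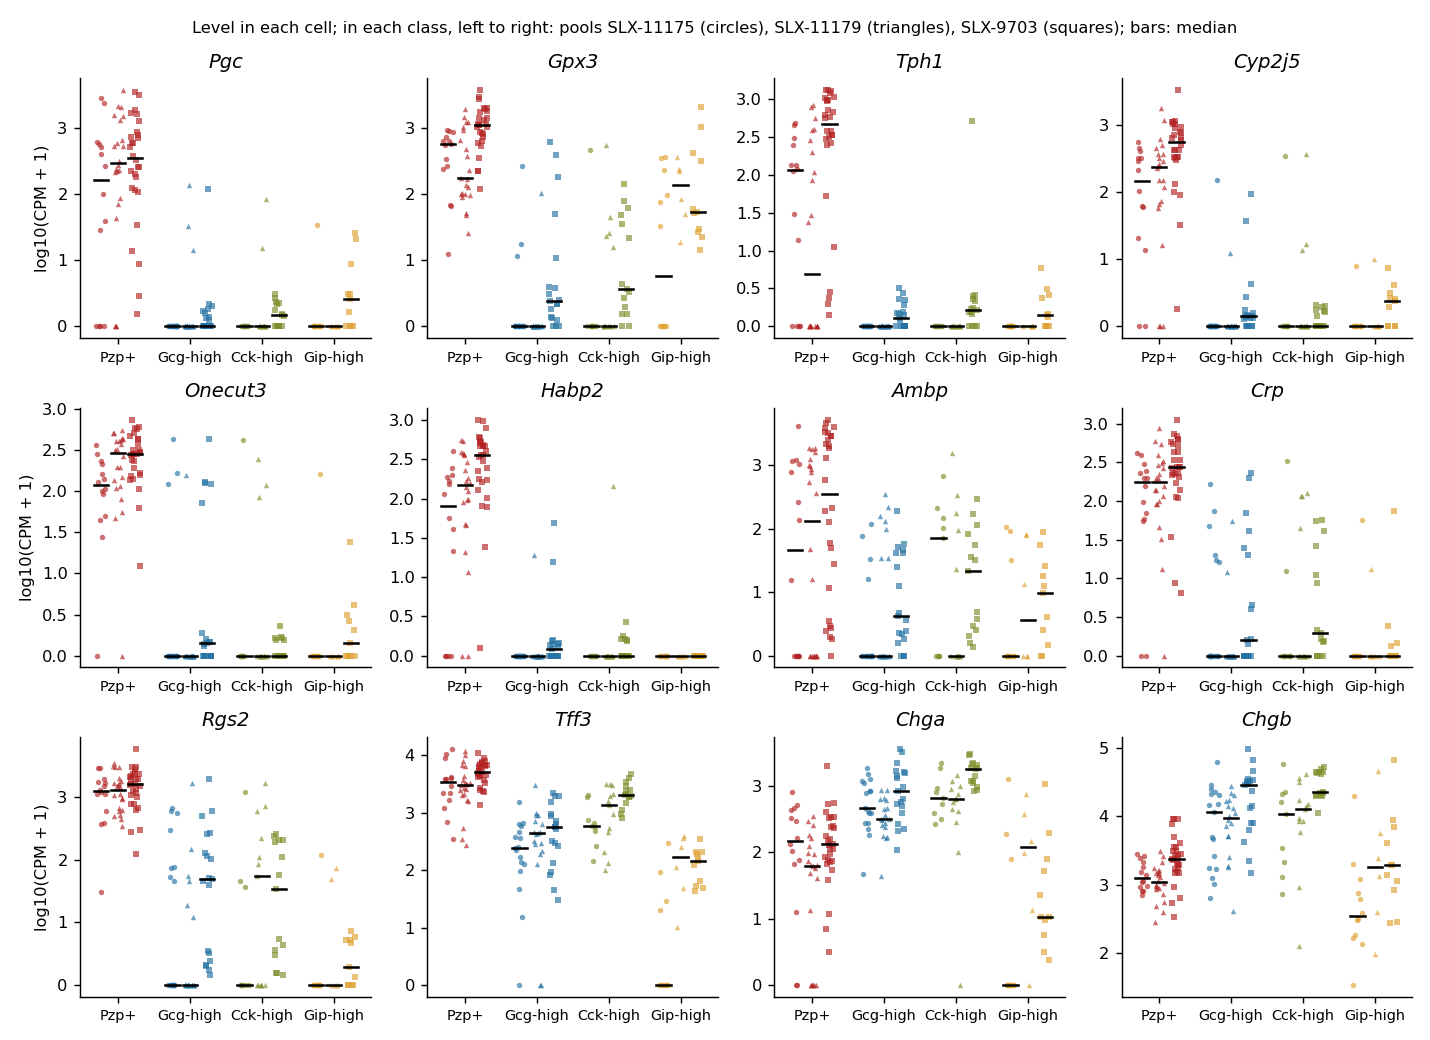
Level of 12 genes in each member and each Gcg-high, Cck-high and Gip-high cell, as log10(CPM + 1), by pool within a class, with bars at the median. The marker genes other than Tph1 have reads in most members of every pool, as do Habp2, Rgs2 and Tff3. Some members of pool SLX-11175 have no read of Pgc, Cyp2j5 or Habp2. Tph1 and Ambp are split among members, and Chga and Chgb sit lower in members than in Gcg-high and Cck-high cells.

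Cck, the hormone that contracts the gallbladder and releases pancreatic enzymes, was expressed in all 64 members, from 4112 to 406630 CPM with a median of 122060 CPM, and 61 members held at least 10000 CPM. The median in Gcg-high cells was nearly the same at 121710 CPM. The member sums of 160509, 92979 and 169603 CPM overlapped those of Gcg-high cells (120702, 145297 and 141652 CPM), with a log2 fold change of -0.19 ± 0.27 (SE) and an adjusted p of 0.93. Sct, encoding secretin, which raises bicarbonate secretion, had a median of 28392 CPM in members (192 to 113070) against 4248 CPM in Gcg-high and 80619 CPM in Cck-high cells. The sums of Sct did not pass the test in either comparison, at 0.60 ± 0.28 (adjusted p = 0.668) against Gcg-high cells and -1.86 (adjusted p = 0.0961) against Cck-high cells, although in the latter all 3 member sums (35073, 20689 and 48618 CPM) lay under all 3 sums of Cck-high cells (81294, 91339 and 106537 CPM). At least 10000 CPM of both Cck and Sct were found in 49 members. Cck and Sct, another of these 5 pairs, had Spearman correlations of 0.30, 0.38 and 0.34 across members.

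Ghrl, encoding ghrelin, a hormone that stimulates appetite, had a median of 3922 CPM in members, with 44 at 1000 CPM or more and 3 without a read. Its sums of 12566, 11137 and 13168 CPM lay within the range of those of Gcg-high cells (16756, 8869 and 14722 CPM), with a log2 fold change of -0.29 and an adjusted p of 0.758. Mboat4, whose product attaches the fatty acid that ghrelin needs for activity, differed: it stood at 0, 4.32 and 0.17 CPM in members and at 178, 33.2 and 37.4 CPM in Gcg-high cells, a log2 fold change of -6.43 ± 1.01 (adjusted p = 0.0317, not past the threshold without pool SLX-9703). The sums of Ghrl thus overlapped those of Gcg-high cells and those of Mboat4 did not.

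Nts, encoding neurotensin, was high in a small share of the members. It ran from 0 to 346960 CPM with a median of 88.1 CPM, and 9 members, 3 in each pool, held 10000 CPM or more. No Gcg-high cell reached that level, but 7 Cck-high cells did, and so did 12 of the 66 cells low in Gcg, Gip and Cck, whose highest level of 416760 CPM lay above that of any member. The member sums of 44380, 4902 and 2168 CPM all lay above the Gcg-high sums of 460, 405 and 33.9 CPM (log2 fold change 5.26 ± 0.66, adjusted p = 0.0106). The medians per cell were 88.1 and 23.5 CPM. Against Cck-high cells Nts was at -0.90 (adjusted p = 0.798). Of the 9 Nts-rich members 7 held at least 100 CPM of Tph1, as did 31 of the other 55 members. Pyy, encoding peptide YY, was lower in members, with sums of 11.8, 6.79 and 126 CPM against 2461, 2022 and 903 CPM in Gcg-high cells (log2 fold change -6.31 ± 1.10, adjusted p = 0.0481, not past the threshold without pool SLX-11179). Against Cck-high cells, with sums of 5009, 1038 and 344 CPM, Pyy did not pass (-6.36, adjusted p = 0.225).

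**Figure D3:**
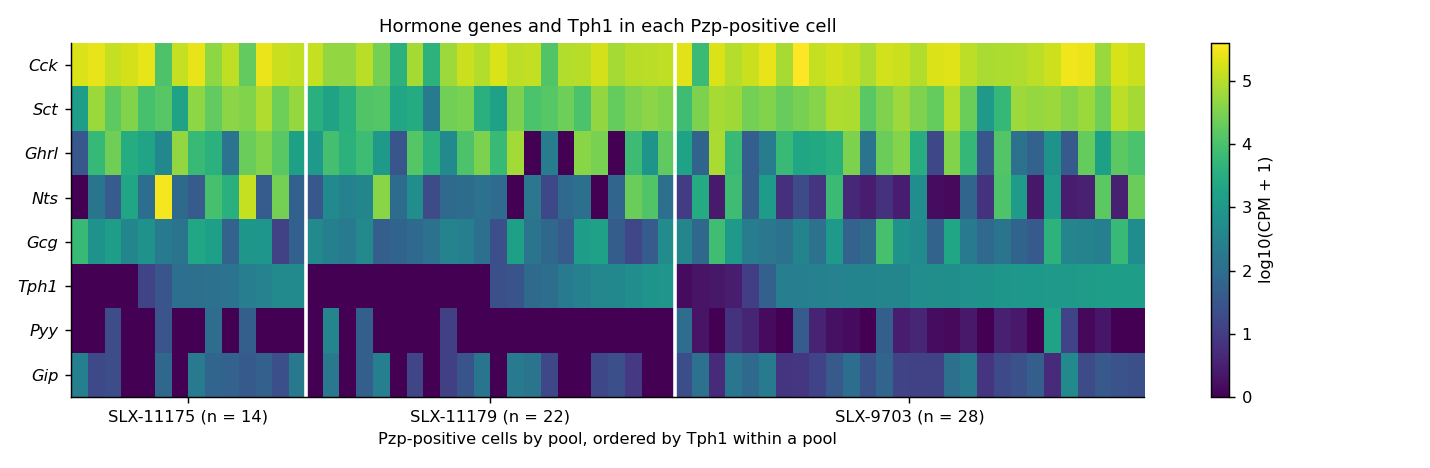
Level of 7 hormone genes and Tph1 in each of the 64 members as log10(CPM + 1), colour from low (dark) to high (bright), with members as columns grouped by pool and ordered by Tph1. Cck is high in nearly all members and Sct in most, with both at 10000 CPM or more in 49 of 64. Ghrl varies widely, Nts is high in 9, Gcg stays under 10000 CPM by the rule, and Pyy and Gip stay low.

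Of the 21 gut hormone genes listed, 6 could be tested against Gcg-high cells, of which Nts was higher and Pyy lower, and none of the 6 or 9 tested passed against Cck-high or all other kept cells. No member had a read of Sst, Vip, Npy, Adm, Penk, Npw or Insl5. In sums of cells, fewer expressing cells and less RNA per cell cannot be told apart.

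Next to all other kept cells, 64 of 12293 tested genes were higher in members (0.521%) and 100 were lower (0.813%), in an edgeR quasi-likelihood fit that took the pool as a block and called genes at an adjusted p of 0.05. Next to Gcg-high cells 37 of 8940 were higher (0.414%) and 23 lower (0.257%), and next to Cck-high cells 5 of 8217 were higher (0.0608%) and 6 lower (0.073%). At a minimum depth of 50000 reads no call against Cck-high cells was kept, although all these genes kept their direction. Levels quoted are plain CPM of the sums, whereas fold changes come from the model with TMM scaling and can differ from the ratio of levels. Of the 50 genes most raised in the deep pool against Gcg-high cells, 49 were also raised in both shallow pools, and of the 50 most lowered 44 were also lowered, where 34.4% and 19.9% of all tested genes were raised or lowered in all 3 pools. Against all other kept cells the counts were 50 and 37 (49.7% and 12.7% of all tested genes), and against Cck-high cells 45 and 41 (37.6% and 18.6%). These shares are over all tested genes, whereas each 50 were picked by their direction in the deep pool. Counts and shares are therefore not like for like, and a share over genes of that direction would be larger.

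Secreted proteins best known from liver and plasma gave the largest number of calls against Gcg-high cells of the lists tested. Of 36 such genes 14 could be tested against Gcg-high cells, and 6 were higher in members and none lower, with a median log2 fold change of 1.89 against 0.02 over all tested genes. Genes too low in all sums to be tested are left out of that median. The list was drawn up with earlier results known and is no independent evidence. Habp2, a plasma serine protease that binds hyaluronan, stood at 126, 244 and 382 CPM in members against 0, 0.626 and 3.94 CPM in Gcg-high cells (log2 fold change 6.96 ± 0.51, adjusted p = 0.00106). Habp2 overlaps Nrap, as Ghrl, F5, Neurod1 and Cyp2c55 overlap other gene models, and without strand such reads cannot be told apart. Habp2 had reads in 58 of 64 members, and at 20000 reads in 76.6% of members against 3.7% of Gcg-high cells. Ambp, the precursor of alpha-1-microglobulin and bikunin, stood at 528, 780 and 1359 CPM against 12.1, 42.5 and 24.1 CPM (4.94 ± 0.43, adjusted p = 0.0024), but was split among members, with 16 without a read and 23 at 1000 CPM or more. Crp, C-reactive protein, was raised by 3.96 ± 0.51 (adjusted p = 0.0119), from 14.6, 3.75 and 35.7 CPM in Gcg-high cells to 178, 309 and 342 CPM.

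Serpina1b and Serpina1e, of the alpha-1-antitrypsin family that inhibits neutrophil elastase, were higher in members by 2.60 ± 0.30 (adjusted p = 0.00772) and 3.31 ± 0.37 (adjusted p = 0.00579) against Gcg-high cells. Serpina1b stood at 218, 304 and 342 CPM in members and 23.2, 45 and 59.6 CPM in Gcg-high cells, and Serpina1e at 122, 124 and 140 CPM and 18.1, 8.13 and 10.2 CPM. The mouse copies of this family are nearly identical, so reads may be split or lost between them and each level is uncertain. Rbp4, the plasma carrier of retinol, showed a smaller change, from 731, 532 and 918 CPM in Gcg-high cells to 1669, 1689 and 2206 CPM in members (1.17 ± 0.20, adjusted p = 0.0394), and it lost its call when any 1 of the pools was left out. Ttr, the thyroxine carrier transthyretin, did not pass (295, 287 and 321 CPM against 122, 168 and 359 CPM, 0.40, adjusted p = 0.828). Alb, serum albumin, stood at 0, 27.8 and 16.3 CPM in members, and 11 of the 33 listed genes other than Pzp, Pgc and Gpx3 had no read in any member, among them Fga, Fgb, Fgg, Hp, Ahsg, C3 and Plg. Of the 14 tested genes 13 had a positive log2 fold change against Gcg-high cells and 6 passed. The calls therefore covered some liver-type genes and not the list as a whole.

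Against all other kept cells the same list had 15 tested genes, 5 of them higher (Habp2, Ambp, Crp, Serpina1b and F5). Habp2 had a log2 fold change of 6.67 ± 0.51 (adjusted p = 0.00165), Ambp of 3.68 ± 0.50 (adjusted p = 0.015) and Crp of 3.53 ± 0.32 (adjusted p = 0.00295). F5, coagulation factor V, was at 2.20 (adjusted p = 0.0307) and did not pass once the 66 cells low in Gcg, Gip and Cck were left out, whereas Serpina1e then did, at 3.88. Against Cck-high cells all 12 tested genes had a positive log2 fold change with a median of 2.19, but none passed: Habp2 was at 7.44 (adjusted p = 0.084), Crp at 2.96 (adjusted p = 0.0961), Serpina1b at 3.56 (adjusted p = 0.0878) and Ambp at 2.45 (adjusted p = 0.197). Summed over 33 genes of the list, members held 3336 to 5352 CPM per pool, Gcg-high cells 860 to 1579 CPM, Cck-high cells 886 to 1265 CPM and Gip-high cells 1632 to 2463 CPM.

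The promoters of Crp and Serpina1b, and that of Pgc among the markers, are shown because these genes were high in the members together with Pzp and hold the same letters. They come from RefSeq GRCm38.p6, Crp from chr1:172697806-172698105 on the plus strand, Serpina1b from chr12:103738140-103738439 on the minus strand and Pgc from chr17:47726592-47726891 on the plus strand. Capitals again mark the Onecut letters (ATCAAT or ATTGAT).
Crp: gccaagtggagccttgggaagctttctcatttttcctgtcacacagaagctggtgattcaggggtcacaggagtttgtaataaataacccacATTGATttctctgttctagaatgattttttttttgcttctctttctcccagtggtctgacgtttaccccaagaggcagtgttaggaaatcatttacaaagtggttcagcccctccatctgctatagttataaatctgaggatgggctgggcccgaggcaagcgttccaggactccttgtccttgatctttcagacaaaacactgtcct
Serpina1b: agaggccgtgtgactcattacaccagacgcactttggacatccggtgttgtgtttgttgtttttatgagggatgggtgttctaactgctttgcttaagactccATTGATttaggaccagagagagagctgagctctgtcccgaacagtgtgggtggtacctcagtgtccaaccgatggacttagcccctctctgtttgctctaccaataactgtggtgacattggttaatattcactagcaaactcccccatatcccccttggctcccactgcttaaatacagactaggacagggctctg
Pgc: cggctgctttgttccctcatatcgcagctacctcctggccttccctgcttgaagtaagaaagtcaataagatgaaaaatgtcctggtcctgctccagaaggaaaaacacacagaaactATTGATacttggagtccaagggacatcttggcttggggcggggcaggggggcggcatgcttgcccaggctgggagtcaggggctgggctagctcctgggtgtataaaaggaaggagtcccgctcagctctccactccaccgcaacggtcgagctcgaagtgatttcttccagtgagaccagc
The letters begin at -158 in Crp, at -147 in Serpina1b and at -132 in Pgc. Casr holds them at -169, and they were not found in the promoters of Gpx3, Tph1, Cyp2j5, Habp2, Ambp, Sstr2 and Rgs2. The 37 genes called higher against Gcg-high cells make 43 together with Pzp and the other 5 markers. Of these 38 had a promoter in the table, of which 7 (18.4%) held the Onecut letters. Among the genes tested in that comparison 3.89% of 6837 promoters held them. For the genes called higher against all other kept cells with the same 6 genes the share was 9.84% of 61, and for the genes tested there 4.08% of 8944. These are shares with no test, over windows that need not hold the start used in gut cells.

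**Figure D4:**
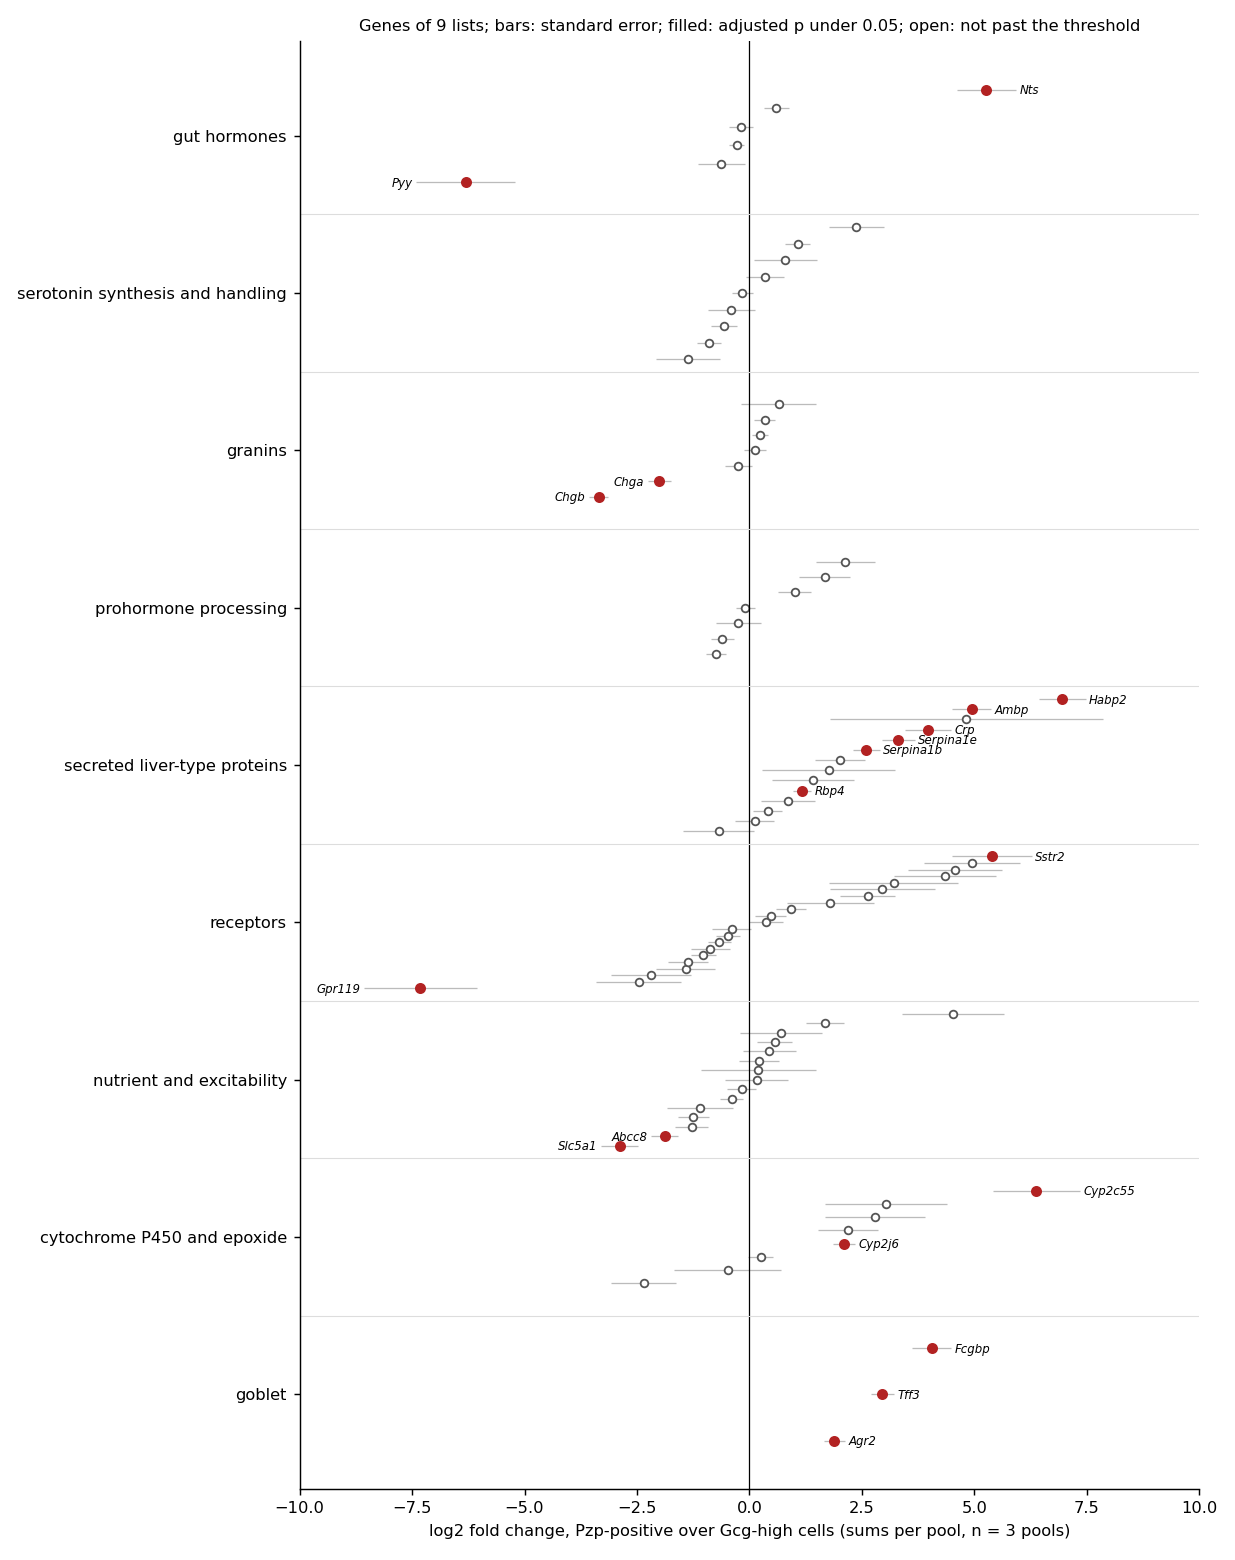
Log2 fold change of members over Gcg-high cells for the tested genes of 9 lists, each point a gene with its standard error, filled and named where the adjusted p was under 0.05. The liver-type and goblet rows lie mostly right of 0, and the called granins Chga and Chgb lie left of it.

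Rgs2, a regulator that shortens G protein signalling, was among the most even differences. Its sums were 1291, 1738 and 1712 CPM in members, 106, 74.4 and 265 CPM in Gcg-high cells and 177, 296 and 91.7 CPM in Cck-high cells. Rgs2 was higher in members in all comparisons, by 3.56 ± 0.23 against all other kept cells (adjusted p = 0.000626), 3.40 ± 0.33 against Gcg-high cells (adjusted p = 0.0038) and 2.85 ± 0.39 against Cck-high cells (adjusted p = 0.0471). At a minimum depth of 50000 reads Rgs2 lost the call against Cck-high cells, as did every gene called there. Per cell its median was 1489 CPM in members, 2.37 CPM in Gcg-high and 4.52 CPM in Cck-high cells, and every member held a read.

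Tff3 and Agr2, genes of mucus-secreting cells that encode a trefoil peptide and a protein disulfide isomerase of the endoplasmic reticulum, were expressed in all members. Tff3 ran from 275 to 13011 CPM with a median of 4042 CPM, against medians of 364 CPM in Gcg-high and 1580 CPM in Cck-high cells. Its sums were 4416, 4702 and 5503 CPM against 370, 598 and 719 CPM in Gcg-high cells (log2 fold change 2.95 ± 0.26, adjusted p = 0.0024). Agr2 stood at 3795, 4630 and 5330 CPM against 729, 1308 and 1270 CPM (1.89 ± 0.24, adjusted p = 0.0107). Fcgbp, a mucus protein that binds IgG, stood at 201, 176 and 279 CPM against 23.2, 3.13 and 14.4 CPM (4.05 ± 0.44, adjusted p = 0.0051). All 3 tested goblet genes were thus higher against Gcg-high cells. Against Cck-high cells Fcgbp was higher (3.27 ± 0.36, adjusted p = 0.0272), while Tff3 (1.30, adjusted p = 0.166) and Agr2 (0.60, adjusted p = 0.609) did not pass. Without pool SLX-9703 Fcgbp lost this call, and Agr2 lost its call against Gcg-high cells. The summed level of the 8 goblet genes was 8429 to 11131 CPM in members, 1124 to 2009 CPM in Gcg-high and 2791 to 5479 CPM in Cck-high cells, but the gene of the gel-forming mucin Muc2 had 1 read in each member sum and Clca1 had none. Of the remaining 3 pairs, Sct and Tff3 had Spearman correlations of 0.52, 0.82 and 0.47 across the members of the 3 pools, Habp2 and Mc4r of 0.32, 0.33 and 0.34, and Agr2 of 0.65, 0.49 and 0.33 with Pzp, by which the members were chosen.

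Cytochrome P450 enzymes that oxidise arachidonic acid held further calls. Cyp2j6, a close relative of Cyp2j5, stood at 400, 378 and 606 CPM in members. It was higher than in all other kept cells (39.3, 45.1 and 96.8 CPM, log2 fold change 2.47 ± 0.20, adjusted p = 0.00167), Gcg-high cells (81.8, 76.9 and 121 CPM, 2.10 ± 0.25, adjusted p = 0.00772) and Cck-high cells (84.7, 51.3 and 106 CPM, 2.18 ± 0.25, adjusted p = 0.0301). Without pool SLX-9703 Cyp2j6 lost its calls against Gcg-high and Cck-high cells. Reads of Cyp2j5 and Cyp2j6 may be shared in part. Cyp2c55 stood at 16.5, 9.87 and 73.1 CPM against 0, 0 and 0.969 CPM in Gcg-high cells (6.38 ± 0.97, adjusted p = 0.0269) and passed only with all 3 pools or without pool SLX-11175. Of 8 tested genes of the list, these 2 were higher against Gcg-high cells and none lower.

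Among genes of no list, Mfsd2a, a transporter of lysophosphatidylcholine with omega-3 fatty acids, was higher in members against every class, at 63.5, 56.2 and 208 CPM against 1.78, 4.10 and 13.8 CPM in all other kept cells (log2 fold change 3.68 ± 0.34, adjusted p = 0.00328), 5.17, 1.88 and 10.5 CPM in Gcg-high cells (4.07 ± 0.42, adjusted p = 0.00458) and 5.30, 0.828 and 7.90 CPM in Cck-high cells (4.33 ± 0.52, adjusted p = 0.0301). Adamts5, a protease of cartilage proteoglycan, stood at 134, 52.4 and 92 CPM against 4.31, 4.38 and 5.13 CPM in Gcg-high cells (4.02 ± 0.47, adjusted p = 0.00772). Nt5e, the ectoenzyme that makes adenosine from AMP, stood at 226, 116 and 304 CPM against 19.8, 8.13 and 19.7 CPM (3.59 ± 0.31, adjusted p = 0.0024). Kcnc1, a fast voltage-gated potassium channel, stood at 28.2, 54.9 and 137 CPM against 0.861, 4.38 and 7.85 CPM (3.86 ± 0.52, adjusted p = 0.015). Egfl6, Col6a5 and Spg20 were also among the 15 called genes of at least 20 CPM in every member sum with the largest rise against Gcg-high cells, at 8.68, 6.05 and 3.32, with Gm12511 at 3.18. Egfl6, a secreted protein with EGF-like repeats, led the same ranking against all other kept cells, from 0.198, 0.293 and 0.0809 CPM to 31.8, 22.8 and 34.9 CPM (7.32 ± 0.91, adjusted p = 0.0117). Egfl6 lost this call without pool SLX-11175 and the call against Gcg-high cells without pool SLX-9703, as there did Mfsd2a, Kcnc1, Col6a5, Spg20 and Gm12511. Without pool SLX-9703 Mfsd2a also lost its call against Cck-high cells.

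The remaining leading genes against all other kept cells were Gas2 (3.65), Cav2 (3.43), Col6a5 (3.39), Col17a1 (3.33), Spg20 (2.86), Slc27a2 (2.73), Rdh7 (2.66) and D930028M14Rik (2.60), given as log2 fold changes with adjusted p from 0.0109 (Spg20) to 0.0399 (Col6a5). Col6a5 lost its call there (3.967) once the 66 cells low in Gcg, Gip and Cck were left out. Of these 8 genes only Cav2 passed without each pool in turn: Gas2, Spg20 and Slc27a2 lost the call without pool SLX-11175, and Gas2, Col6a5, Col17a1, Rdh7 and D930028M14Rik without pool SLX-9703. Cav2 encodes a caveolin, Slc27a2 a fatty acid transporter and Col17a1 a hemidesmosome collagen.

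Chga and Chgb, encoding the granule proteins chromogranin A and B, were lower in members. Chgb stood at 1587, 1290 and 3702 CPM in members, 15050, 12470 and 28148 CPM in Gcg-high cells and 13116, 18467 and 33014 CPM in Cck-high cells. Its log2 fold change was -3.35 ± 0.21 against Gcg-high (adjusted p = 0.000512) and -3.71 ± 0.31 against Cck-high cells (adjusted p = 0.0205). All 64 members had reads of Chgb, with a median of 1588 CPM and a highest level of 9242 CPM, below the medians of 13227 and 19954 CPM in the other classes. Chga stood at 245, 101 and 322 CPM in members against 722, 410 and 1139 CPM (-2.0 ± 0.25, adjusted p = 0.0114) and 960, 708 and 1689 CPM (-2.75 ± 0.30, adjusted p = 0.0272). Of 7 granin genes these 2 were lower and none higher in each of the 3 comparisons. Chga lost its call against Gcg-high cells without pool SLX-9703. Against Cck-high cells 6 of the 7 granin genes had a negative log2 fold change, with a median of -0.38 against 0.05 over all tested genes. Scg2, encoding secretogranin II, stood at 4032, 5673 and 8980 CPM against 3161, 4010 and 6643 CPM in Gcg-high cells (0.22, adjusted p = 0.827). None of the 7 tested genes of prohormone processing passed in any comparison: Pcsk1, the main prohormone convertase of these cells, was at 342, 341 and 596 CPM against 382, 265 and 544 CPM in Gcg-high cells (-0.09).

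Apart from the marker Tph1, for which no test is given, 1 gene of serotonin handling passed, in 1 comparison. Ddc, which turns 5-hydroxytryptophan into serotonin, stood at 231, 275 and 426 CPM in members and 234, 215 and 486 CPM in Gcg-high cells (log2 fold change -0.16, adjusted p = 0.927). Slc18a1, the vesicular monoamine transporter of endocrine cells, stood at 144, 161 and 175 CPM against 88.7, 44.4 and 73 CPM (1.07, adjusted p = 0.249), and against 93.5, 179 and 187 CPM in Cck-high cells (-0.26, adjusted p = 0.89). Maob, which breaks amines down, was higher against all other kept cells (50.6, 95 and 156 CPM against 7.31, 9.80 and 42.1 CPM, 2.09 ± 0.29, adjusted p = 0.0177). It lost that call when the 66 cells low in Gcg, Gip and Cck were left out and did not pass against Gcg-high (adjusted p = 0.209) or Cck-high cells (adjusted p = 0.332). No other tested gene of the list passed in any comparison.

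Receptor genes changed in both directions. Sstr2, a receptor for the inhibitory hormone somatostatin, stood at 49.4, 17.3 and 77.5 CPM in members, against 0, 0 and 3.21 CPM in Gcg-high cells (log2 fold change 5.39 ± 0.89, adjusted p = 0.0376) and 0, 0 and 0.735 CPM in Cck-high cells (6.67, adjusted p = 0.0471). It had reads in 28 of 64 members, 4 of 54 Gcg-high and 1 of 37 Cck-high cells, and neither call held without pool SLX-9703, nor the call against Gcg-high cells without pool SLX-11179. Against all other kept cells Sstr2 did not pass (2.66 ± 0.73, adjusted p = 0.19), and it did (4.95, adjusted p = 0.0489) once the 66 cells low in Gcg, Gip and Cck were left out, in which it reached 424 CPM. Gpr119, a lipid amide receptor whose activation releases incretins, was lower at 7.06, 1.85 and 0.119 CPM against 110, 78.2 and 150 CPM in Gcg-high cells (-7.31 ± 1.25, adjusted p = 0.0426, not past the threshold without pool SLX-11179). Only 8 members had a read of Gpr119, against 39 of 54 Gcg-high cells. These were the 2 receptor calls among 21 genes tested against Gcg-high cells.

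Casr, the calcium-sensing receptor that also responds to amino acids, stood at 57.6, 56.8 and 49.9 CPM in members, against 0, 0 and 11.3 CPM in Gcg-high cells (log2 fold change 4.35 ± 1.14, adjusted p = 0.23) and 0, 0 and 3.24 CPM in Cck-high cells (4.90, adjusted p = 0.118). All member sums of Casr lay above all sums of both classes, without passing the test. Mc4r, a melanocortin receptor, stood at 108, 105 and 125 CPM and was higher than in all other kept cells (2.57, 17.4 and 12 CPM, 3.12 ± 0.48, adjusted p = 0.0248), but not past the threshold against Gcg-high (6.03, 43.8 and 12 CPM, 2.63, adjusted p = 0.161) or Cck-high cells (1.96, adjusted p = 0.29). Tlr5, the receptor for bacterial flagellin, likewise passed only against all other kept cells (22.4, 21 and 36 CPM against 0, 0.146 and 1.17 CPM, 5.72 ± 0.86, adjusted p = 0.0237). It had 19, 34 and 2122 reads in the member sums and none in any of the 37 Cck-high cells (adjusted p = 0.128). Neither Mc4r (2.66) nor Tlr5 (5.67) passed against all other kept cells once the 66 cells low in Gcg, Gip and Cck were left out, nor did either without pool SLX-11175. Ffar1, the receptor for long-chain fatty acids, stood at 144, 101 and 131 CPM against 220, 228 and 208 CPM in Gcg-high cells (-1.02, adjusted p = 0.274). Reads of Casr were found in 49 members, of Mc4r in 51 and of Tlr5 in 33.

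Of the nutrient and excitability list 1 of 20 tested genes was higher and 3 were lower against all other kept cells, 2 of 15 were lower against Gcg-high cells and 1 of 17 was lower against Cck-high cells. Slc5a1, the sodium-glucose cotransporter through which glucose excites L- and K-cells, stood at 5.88, 9.87 and 22.2 CPM in members and 74, 46.9 and 120 CPM in Gcg-high cells (log2 fold change -2.89 ± 0.41, adjusted p = 0.0185). Abcc8, the sulphonylurea receptor of the ATP-sensitive potassium channel, stood at 29.4, 51.8 and 41.2 CPM against 129, 116 and 140 CPM (-1.88 ± 0.30, adjusted p = 0.0341). Both were lower than in all other kept cells (-3.01 with adjusted p = 0.00577 and -1.78 with adjusted p = 0.0299), where Abcc8 lost its call without pool SLX-11175 and without pool SLX-9703. Neither passed against Gcg-high cells without pool SLX-11179 or without pool SLX-9703. Trpa1, a channel opened by irritants and known from enterochromaffin cells, had 2.35, 0 and 0.0849 CPM in members against 88.3, 54.6 and 68.1 CPM in Cck-high cells (-8.76 ± 1.04, adjusted p = 0.0301). Members were thus next to free of Trpa1 reads. Scn3a, a voltage-gated sodium channel, stood at 80, 102 and 104 CPM and was higher than in all other kept cells (1.93, adjusted p = 0.0357), a call lost without the 66 cells low in Gcg, Gip and Cck, without pool SLX-11175 and without pool SLX-9703, and not past the threshold against Gcg-high cells (1.68, adjusted p = 0.209).

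Few transcription factors passed the test. Isl1, needed for several endocrine lineages, stood at 69.4, 112 and 115 CPM in members against 332, 212 and 313 CPM in Gcg-high cells (log2 fold change -1.73 ± 0.28, adjusted p = 0.0356) and was lower than in all other kept cells too (-1.28, adjusted p = 0.0301). Without pool SLX-9703 Isl1 passed in neither comparison, nor did it pass against Gcg-high cells without pool SLX-11179 or against all other kept cells without pool SLX-11175. Rfx6 (-3.53 ± 0.44, adjusted p = 0.0117) and Mlxipl (-1.99, adjusted p = 0.0174, not past the threshold without pool SLX-11175) were lower than in all other kept cells, with Rfx6 at 17.6, 10.5 and 3.22 CPM against 66.2, 53.7 and 66.3 CPM. These 3 were the calls among 35 tested factors there, Isl1 was the call among 33 against Gcg-high cells, and none of 33 passed against Cck-high cells. Neurod1, a pan-endocrine factor, stood at 433, 742 and 1055 CPM against 558, 635 and 985 CPM in Gcg-high cells, with no call. Prox1 was at 187, 142 and 103 CPM against 42.7, 32.8 and 47.9 CPM in all other kept cells (1.23, adjusted p = 0.0517). Onecut2, the paralog of the marker Onecut3, did not pass (153, 196 and 139 CPM against 112, 124 and 108 CPM in Gcg-high cells, 0.28, adjusted p = 0.847).

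Naaladl1, an intestinal aminopeptidase, stood at 4.71, 8.02 and 22.7 CPM in members and was lower in every comparison, by -3.87 ± 0.39 against all other kept cells (adjusted p = 0.00423), -4.21 ± 0.41 against Gcg-high cells (adjusted p = 0.0038) and -4.77 ± 0.52 against Cck-high cells (adjusted p = 0.0272). Fap, a prolyl peptidase, stood at 67.1, 120 and 120 CPM against 932, 464 and 723 CPM in Gcg-high cells (-2.96 ± 0.32, adjusted p = 0.0051). Anpep, aminopeptidase N, a gene of the enterocyte list, was at 55.3, 42 and 92.5 CPM against 324, 271 and 292 CPM (-2.48 ± 0.32, adjusted p = 0.0127). Cd24a, a surface glycoprotein, was lower against Gcg-high (-3.30 ± 0.35, adjusted p = 0.0051) and against all other kept cells (-3.93 ± 0.24, adjusted p = 0.000472). Sphkap (-3.44, adjusted p = 0.0181) and Dbpht2 (-2.77, adjusted p = 0.0269) complete the 10 leading lower genes there, and both lost the call without pool SLX-9703. Against Cck-high cells the remaining lower genes were Slc6a19, a neutral amino acid transporter (-2.0 ± 0.24, adjusted p = 0.0301), and Cyp4b1 (-1.85 ± 0.24, adjusted p = 0.047). Both lost the call there without pool SLX-9703.

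Cd52 had the most negative log2 fold change of the 10 leading lower genes against all other kept cells. Cd52, a lymphocyte surface gene, stood at 0, 0 and 0.017 CPM in members against 21.7, 38.8 and 36 CPM (log2 fold change -10.98 ± 0.79, adjusted p = 0.00111). Cd44 (-6.83), Dmbt1 (-6.33), Car8 (-4.60), Ces2e (-4.42) and Cnr1, a cannabinoid receptor (-3.64 ± 0.47), had adjusted p from 0.0134 to 0.0285, all 5 lost the call without pool SLX-11175, and the sums of Ces2e overlapped between the classes. Baiap3, a protein of dense core vesicle traffic, stood at 3.53, 2.47 and 3.22 CPM against 33.6, 44.3 and 48.2 CPM (-4.28 ± 0.41, adjusted p = 0.00335). Of the immune list 4 of 7 tested genes were lower there (Ptprc, Igha, Igkc and Jchain), and none of 6 or 4 passed against Gcg-high or Cck-high cells. With the 66 cells low in Gcg, Gip and Cck left out, a comparison added after the data were seen, 42 genes were higher and 49 lower, 35 and 41 of them shared with the full comparison, and Igkc was at 0.14. Ces2e, Apoa1, Reg3g, Igha and Jchain lost their calls in it. Of the enterocyte list 4 of 15 were lower against all other kept cells (Apoa1, Anpep, Reg3g and Rbp2) and 1 of 12 against Gcg-high cells (Anpep). Against all other kept cells Apoa1, Anpep and Rbp2, like Igkc, lost the call without pool SLX-11175, and Ptprc lost it without pool SLX-9703.

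Lists of other cell types and states gave few calls. No gene of the villus and BMP list passed in any comparison (11, 10 and 11 tested against all other kept, Gcg-high and Cck-high cells). For other cell types few genes were high enough to test: 2, 1 and 1 of 8 Paneth genes, 1 of 8 tuft genes in each comparison (log2 fold changes of 3.68, 3.40 and 4.34) and 3, 0 and 1 of 10 stromal genes, none of which passed. Of the stem and cycling list Mcm5 was lower against all other kept cells, 1 of 9 tested, a call lost without pool SLX-11175 and without pool SLX-9703. The 12 genes that respond to tissue dissociation gave no call, but 10 of 10 tested against Gcg-high cells had a positive log2 fold change, with a median of 0.76 against 0.02 over all tested genes. Their summed level was 2103 to 4504 CPM in members, 724 to 2901 CPM in Gcg-high and 1522 to 2046 CPM in Cck-high cells, and its part in the differences above was not tested. At 20000 reads members held a median of 2930 genes per cell, Gcg-high cells 2612 and Cck-high cells 2528. Mitochondrial reads had medians of 2.66%, 3.44% and 4.95% in the members of the 3 pools, above the 2.27%, 2.92% and 3.72% of Gcg-high cells in each pool, and 2.17%, 3.25% and 5.59% in Cck-high cells. The part of these values in the differences was not tested.

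The calls depended on the pools. Without pool SLX-9703, the deep pool, 12 of the 37 higher and 8 of the 23 lower genes against Gcg-high cells still passed, and all 60 kept their direction. Of the 36 named genes called in that comparison 16 passed without each pool in turn, namely Adamts5, Ambp, Anpep, Cd24a, Chgb, Crp, Fap, Fcgbp, Habp2, Naaladl1, Nt5e, Nts, Rgs2, Serpina1b, Serpina1e and Tff3. Against all other kept cells this held for 22 of 50 named called genes, namely Adamts5, Agr2, Ambp, Baiap3, Cav2, Cd24a, Cd52, Chga, Chgb, Crp, Cyp2j6, Habp2, Igha, Jchain, Mfsd2a, Naaladl1, Reg3g, Rfx6, Rgs2, Serpina1b, Slc5a1 and Tff3. Against Cck-high cells it held for 5 of 11: Rgs2, Trpa1, Naaladl1, Chga and Chgb. The other named called genes of each comparison lost their call without at least 1 of the pools. At a minimum depth of 50000 reads no call against Cck-high cells was kept, although all 5 higher and 6 lower genes kept their direction.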

How the data were processed

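Smart-seq2 libraries of 288 sorted cells were analysed. The authors deposited raw counts of reads per gene and cell, aligned with GSNAP (2015-09-29) to mm10 and counted with HTSeq (0.5.3p3) per the submitters' processing notes. Replicates were not pooled, and normalization was none. The table held 46078 mouse genes and 92 spike-ins, and lines that name no gene took 77.6% of the counts and were left out throughout. A further 4 columns matched no sample and were not used. Symbols and coordinates came from GENCODE M21 (45143 identifiers named) and promoters from RefSeq GRCm38.p6. Wells held singly sorted cells, and doublets were not called. 22 cells under 20000 reads and 16 cells above 20% mitochondrial reads were removed. CPM was computed per cell on reads of mouse genes, and no 2 cells had identical counts.

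Counts were summed per pool and class, so deeper cells weigh more, and each comparison was fitted on its 6 sums with edgeR 4.0.16 (TMM, filterByExpr, quasi-likelihood test, pool as a block, Benjamini-Hochberg at 0.05), in R 4.3.3 with limma 3.58.1 and DESeq2 1.42.0 for alternatives. The scripts ran on Python 3.11.15, and the edgeR fit was tried on simulated sums with known changes. Of changes of 2 log2 units, 46.25%, 50.6% and 41.3% were called against all other kept, Gcg-high and Cck-high cells, with 10, 2 and 3 false calls. A gene that did not pass may therefore still differ. Pzp, Gcg and Gip, which the rule used, and the other 5 markers are given without a test, but they stayed in the fits. The adjustment of p ran over them too, as over Cck against Cck-high cells, which can lower the adjusted p of other genes. With Pzp, Gcg and Gip taken out of the counts, 3 higher and 6 lower genes were called against Cck-high cells. The members and lists were chosen with earlier results of these data known. Named genes were the called genes with 1 direction in all 3 pools and at least 20 CPM in every pool of the higher class, ranked by fold (20 higher and 10 lower against all other kept cells, 15 and 10 against Gcg-high cells, all that qualified against Cck-high cells), besides genes of the lists and the rule. Low-count genes rest on few reads in the shallow pools, and PCR reads without molecular identifiers are not independent molecules. Overlapping genes and near-identical copies could not be separated. Alternatives covered depth, mitochondrial and Pzp limits, filters, scaling, tools, thinning to 20000 reads, the pool term and leaving out each pool or the 66 cells low in Gcg, Gip and Cck, the last of these added after the data were seen.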

Additional observations from a re-analysis of the deposited data

How the results depend on the processing

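The share of members was 23.6% to 27.3% under the 5 alternatives that change the kept cells or the rule (minimum depth, mitochondrial limit, Pzp threshold, no limit on Gcg and Gip, and the minimum for the deep pool), within its interval of 20.3% to 31.5%, and the called genes kept their direction wherever tested, except 1 lower gene at a mitochondrial limit of 10% and 3 lower genes, Igkc among them (0.14), with the 66 cells low in Gcg, Gip and Cck left out, all against all other kept cells. Counts of calls moved more (higher and lower). Against all other kept cells they were 204 and 627 with no filter on low counts, 237 and 392 with DESeq2, 472 higher with limma on mean CPM per cell, 107 higher with cells thinned to 20000 reads, 36 higher without the pool term, 42 and 49 without the 66 cells, and 23 (without pool SLX-11175) to 126 (without pool SLX-11179) higher and 59 to 273 lower with 1 pool left out. Against Gcg-high cells they were 114 and 99 with no filter, 161 and 129 with DESeq2, 76 higher with limma, 68 and 52 with thinned cells, and 14 (without pool SLX-9703) to 51 (without pool SLX-11175) higher and 9 to 39 lower with 1 pool left out. Against Cck-high cells they were 0 and 0 by edgeR at a minimum depth of 50000 reads (482 genes at an unadjusted p under 0.05), 14 and 13 at a Pzp threshold of 200 CPM, 95 and 83 with no filter, 103 and 106 with DESeq2, 59 and 21 with limma, 35 and 45 with thinned cells, 3 higher with Pzp, Gcg and Gip out of the library sizes, 3 lower without the pool term, and 2 (without pool SLX-9703) to 54 (without pool SLX-11179) higher and 8 to 44 lower with 1 pool left out. The cause of these moves was not tested. By replicate number no paired analysis was possible because these numbers name wells, while sums of the same pool were paired through the pool term in every fit except the one without it. Reads per cell in the shallow pools limit genes under about 50 CPM, the level of 1 read at the minimum depth.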
